A study of Mus musculus with 6 samples.

Results

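The 9 genes described here encode the signalling chains of the T cell antigen receptor and the first proteins that act on its signal. They are Cd3d, Cd3e, Cd3g, Cd247, Cd8a, Cd8b1, Lck, Zap70 and Lat. They were chosen by name, and all 9 are among the 11175 genes of the expression table. The table holds 6 RNA-seq libraries of CD8+ T cells, the T lymphocytes that kill infected and tumour cells, taken from mouse wild-type (WT) spleen. All cells were stimulated for 48 h with antibodies to CD3 and CD28, so every library comes from activated cells. DOPAC (3,4-dihydroxyphenylacetic acid), a breakdown product of dopamine, was present in the culture of 3 libraries. The other 3 are controls stimulated without it. The labels give no dose, strain, age or sex, and do not say whether replicates were separate animals or cultures, so the spread behind the p-values may be a technical one. The question was whether DOPAC changed the transcripts of this signalling unit.

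The chains of the receptor that bind antigen have no signalling tail of their own. They sit in the membrane with CD3 delta, CD3 epsilon, CD3 gamma and the zeta chain encoded by Cd247, whose tails carry the tyrosine motifs called ITAMs. CD8 binds the MHC class I molecule that presents the antigen and brings the kinase LCK, held on the tail of its alpha chain, to the receptor. LCK phosphorylates the ITAMs, ZAP70 docks on them and is activated, and ZAP70 phosphorylates the membrane scaffold LAT, from which the calcium, Ras and NF-kappaB branches start. The antibody to CD3 used here engages the same complex in both groups.

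The windows just upstream of the RefSeq start sites are shown for the CD3 cluster and for Lck. By GENCODE M21 positions, Cd3d and Cd3g lie head to head on chromosome 9, with 1355 bp between their starts. By the same positions Cd3e starts 27841 bp from Cd3d. Lck has 2 RefSeq start regions and showed the smallest spread between libraries of the 9 genes. The sequences are from RefSeq (GRCm38.p6), each 250 bases long, 5′ to 3′ on the strand of the gene, and end at the base before the start. Capitals mark the motif CAGGAA, which holds the core that ETS factors bind, and the RUNX motif TGTGGT, on either strand (TTCCTG and ACCACA on the other). The Cd3d window is chr9:44981536-44981785 on the plus strand. On the minus strand the Cd3g window is chr9:44980432-44980681 and the Cd3e window chr9:45009612-45009861. The distal Lck window is chr4:129573642-129573891 and the proximal one chr4:129558373-129558622, both on the minus strand.
Cd3d: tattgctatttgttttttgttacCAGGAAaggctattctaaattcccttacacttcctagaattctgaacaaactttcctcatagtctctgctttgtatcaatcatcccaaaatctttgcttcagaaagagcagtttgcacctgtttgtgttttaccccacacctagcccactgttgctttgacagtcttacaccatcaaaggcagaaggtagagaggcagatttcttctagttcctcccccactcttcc
Cd3g: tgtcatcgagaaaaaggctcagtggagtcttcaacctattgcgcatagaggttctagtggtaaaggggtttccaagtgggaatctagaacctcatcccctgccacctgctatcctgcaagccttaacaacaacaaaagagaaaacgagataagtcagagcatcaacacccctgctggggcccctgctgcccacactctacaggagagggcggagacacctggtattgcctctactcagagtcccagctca
Cd3e: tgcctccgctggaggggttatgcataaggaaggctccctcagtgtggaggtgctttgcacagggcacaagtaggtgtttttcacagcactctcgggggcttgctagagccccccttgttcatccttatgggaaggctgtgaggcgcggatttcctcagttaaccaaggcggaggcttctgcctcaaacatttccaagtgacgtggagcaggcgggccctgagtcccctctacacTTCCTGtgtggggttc
Lck distal: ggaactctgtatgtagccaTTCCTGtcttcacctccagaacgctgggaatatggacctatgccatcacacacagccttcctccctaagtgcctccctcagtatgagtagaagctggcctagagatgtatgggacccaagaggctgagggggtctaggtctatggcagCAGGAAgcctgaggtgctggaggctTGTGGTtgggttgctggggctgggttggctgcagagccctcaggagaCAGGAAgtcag
Lck proximal: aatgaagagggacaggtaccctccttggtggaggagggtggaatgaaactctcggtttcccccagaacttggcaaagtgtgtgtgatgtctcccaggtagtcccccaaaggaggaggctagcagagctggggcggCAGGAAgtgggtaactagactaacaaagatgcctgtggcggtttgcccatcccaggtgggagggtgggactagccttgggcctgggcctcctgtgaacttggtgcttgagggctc
The motif CAGGAA occurred in the Cd3d, Cd3e and both Lck windows and not in the Cd3g window. In the Cd3e window it begins 16 bases before the RefSeq start. GENCODE M21 places the Cd3e start further upstream, at 45009627, so by GENCODE that match lies inside the gene. The distal Lck window held it at 3 places, with 1 RUNX motif. RefSeq windows were found for 8 of the 9 genes, 11 windows in all. CAGGAA was in 7 of the 11 and in 25.7% of 32851 mouse windows of the same length, and TGTGGT in 2 of the 11 and in 14.0% of them. For 1 of the 11, a Zap70 window (chr1:36764265-36764514), the bases that follow were not found in a GENCODE M21 transcript of the gene. That window is in these counts and held CAGGAA at 2 places and TGTGGT at 1. A match is a description of letters and not a bound site. FPKM are per gene, so they do not tell transcripts from the distal and the proximal Lck start apart.

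The 9 transcripts were above the median of the listed genes in every library. FPKM are fragments scaled by transcript length and by the fragments of the library. Being per length, they let levels of different genes be set side by side, within limits. The annotation behind the lengths is not named, and control replicate 1 has a trend with exon length, described below. Cd8a was the highest, at rank 207 of 11175 genes by its mean of 185 FPKM over the 6 libraries. Cd8b1 (152 FPKM, rank 253) and Lck (143 FPKM, rank 270) followed. Next came Lat (68.8 FPKM), Cd3e (63.7 FPKM), Cd3d (60.2 FPKM), Cd3g (52.1 FPKM) and Zap70 (47.1 FPKM, rank 995). Cd247 was the lowest at 18.0 FPKM and rank 2841. Its level is uncertain, because its exons overlap those of another gene, as described below. Only 2 steps in this order separated genes whose ranges over the 6 libraries did not overlap. Lck was above Lat in 6 of 6 libraries, with a ratio of means of 2.08, and Zap70 was above Cd247 in 6 of 6, with a ratio of 2.62. Each other pair of neighbours overlapped, and Cd8b1 exceeded Lck in 3 of 6 libraries.

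**Figure D1:**
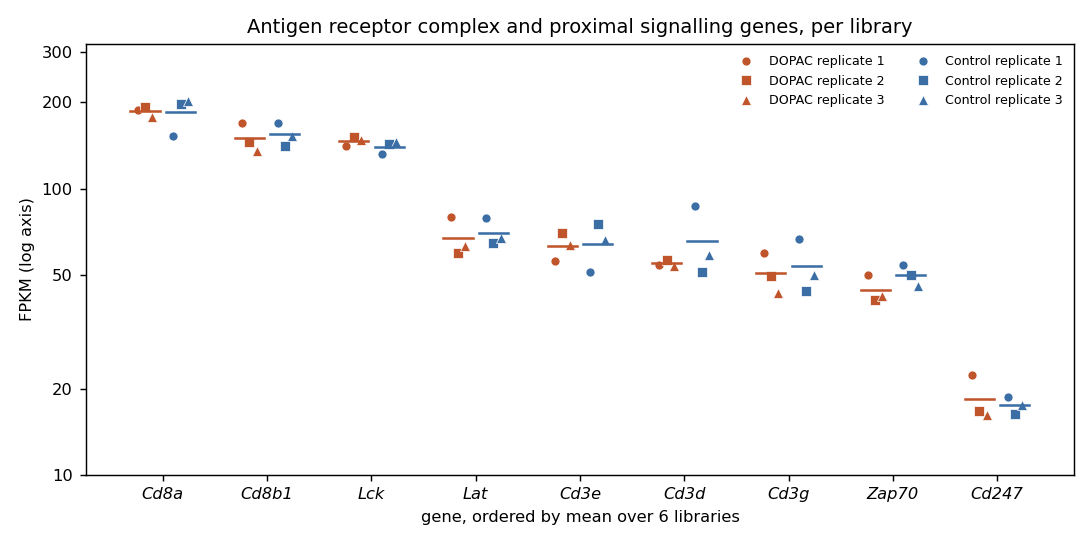
FPKM of the 9 genes on a log axis, DOPAC libraries in orange and control libraries in blue, with a symbol for each replicate number and a line at each group mean. The genes fall into 3 tiers, with Cd8a, Cd8b1 and Lck at 132 FPKM or more in every library, Cd247 between 16.2 and 22.3 FPKM, and the other 5 between, and the groups overlap for every gene.

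None of the 9 transcripts passed the test for a difference between DOPAC and control libraries. With limma's moderated test on log2(FPKM + 1), 0 of 9 had a Benjamini-Hochberg adjusted p under 0.05, the lowest being 0.801 for Zap70. Over all 10887 genes tested 0 passed too (0% called), and the authors' deposited table also had 0 genes at an adjusted p under 0.05. At an unadjusted p under 0.05 there were 0 of the 9 genes and 456 of all genes (4.19%). Groups did not overlap in 0 of the 9 genes, against 17.2% of all genes. The log2 fold change, DOPAC minus control, was positive for 3 genes and negative for 6, with a median of -0.044. Over all genes it was positive for 6761 of 10887, with a median of 0.066. These signs rest on control replicate 1, described below. Without it 6 of the 9 genes were positive, with a median of 0.022. Over all genes 5146 of 10887 were then positive, with a median of -0.011. In bulk RNA fewer cells of a type and less RNA per cell cannot be told apart.

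The intervals give a range for the difference, set by the spread of these libraries, which may be a technical one. They are from the fit without the replicate block. All 9 of the 95% intervals included 0, and together they reached from -0.70 to 0.44. All 9 lay within 1 unit of 0 on the log2 scale, and 7 lay within 0.5. Their half-width had a median of 0.37, against 0.43 over all genes. The median absolute log2 fold change was 0.064 for the 9 genes and 0.16 for all genes tested. The genes tested reach down to a mean of 1 FPKM, so these comparisons are not with genes of like level.

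**Figure D2:**
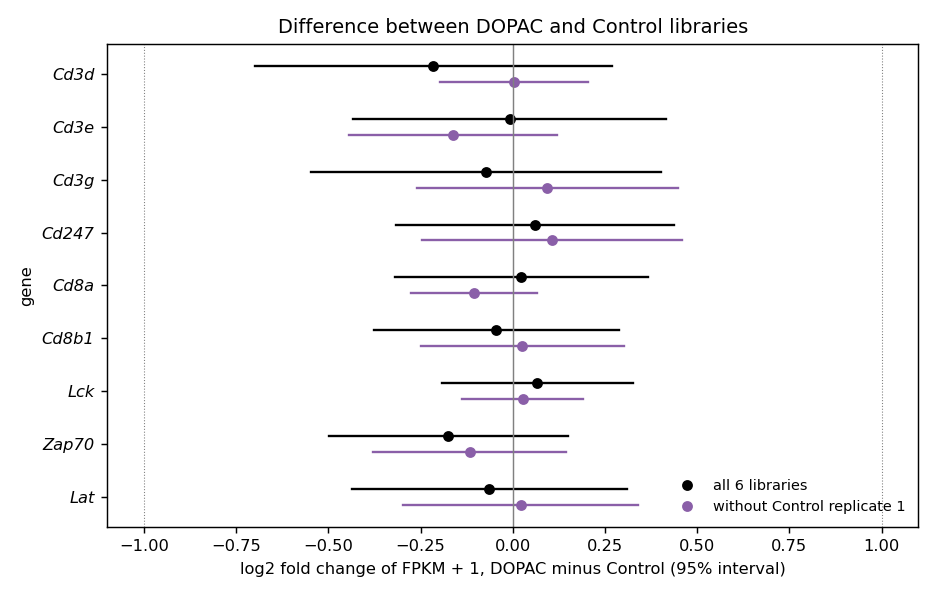
Log2 fold change of FPKM + 1, DOPAC minus control, with its 95% interval for each of the 9 genes, from all 6 libraries (black) and without control replicate 1 (purple). Every black interval includes 0, the widest being that of Cd3d, from -0.70 to 0.27, and every purple one includes 0 as well.

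Among the receptor chains, Cd3d had the largest difference of the 9 genes with all libraries, and a value near 0 without control replicate 1. CD3 delta pairs with CD3 epsilon in the complex. Its gene spans 44981786 to 44987339 of chromosome 9 (positions from GENCODE M21, build GRCm38, the mm10 of the submitters). Cd3d measured 54.3, 56.5 and 53.8 FPKM in the DOPAC libraries, against 86.7, 51.1 and 58.7 FPKM in controls 1, 2 and 3. The 3 DOPAC values lie close together inside the control range, and control replicate 1 stands above the other 5 libraries. On the log2 scale DOPAC minus control came to -0.22 (95% interval -0.70 to 0.27), with a limma adjusted p of 0.802. Without control replicate 1 it was 0.0027 (95% interval -0.20 to 0.20).

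Cd3e encodes CD3 epsilon, which pairs with both CD3 delta and CD3 gamma (chromosome 9, 44998740 to 45009627). It measured 56.0, 70.0 and 63.6 FPKM with DOPAC, against 51.0, 75.4 and 66.1 FPKM in the controls. In each group replicate 1 was the lowest and replicate 2 the highest. The difference on the log2 scale was -0.0086 (95% interval -0.43 to 0.42, adjusted p = 0.993), and -0.16 without control replicate 1. An antisense gene, Gm48719, shares 135 bp of exon with Cd3e, and these libraries do not mark the strand, so reads there cannot be told apart.

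Cd3g encodes CD3 gamma (chromosome 9, 44969572 to 44980431). DOPAC libraries had 59.5, 49.3 and 43.0 FPKM and controls 66.8, 44.0 and 50.1 FPKM. Replicate 1 was the highest in each group. The log2 fold change of Cd3g was -0.073 (95% interval -0.55 to 0.40, adjusted p = 0.920), and 0.094 without control replicate 1.

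Cd247 encodes the zeta chain, which carries more ITAMs than any CD3 chain (chromosome 1, 165788681 to 165877277). The DOPAC libraries had 22.3, 16.8 and 16.2 FPKM, against 18.7, 16.3 and 17.5 FPKM in the controls. DOPAC replicate 1 was above the other 5 libraries, which lay between 16.2 and 18.7 FPKM. The log2 fold change was 0.059 (95% interval -0.32 to 0.44, adjusted p = 0.919), and -0.079 without DOPAC replicate 1. Of its 5329 bp of exon, 3007 bp overlap Pou2f1 on the opposite strand, so its level is uncertain. Pou2f1 was listed at 4.38, 5.32 and 5.02 FPKM with DOPAC, against 1.80, 5.47 and 5.02 FPKM in the controls.

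Neither coreceptor chain differed between the groups beyond the spread of the libraries. Cd8a, the chain that holds LCK (chromosome 6, 71373427 to 71379173), measured 188, 192 and 178 FPKM with DOPAC and 153, 198 and 202 FPKM in the controls. Control replicate 1 was the lowest of the 6 libraries and the other controls the highest. Its log2 fold change was 0.023 (95% interval -0.32 to 0.37, adjusted p = 0.967), and -0.10 without control replicate 1, with an interval from -0.28 to 0.066.

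Cd8b1, the beta chain that pairs with CD8 alpha on conventional CD8+ T cells, lies nearby (chromosome 6, 71322788 to 71337494). It measured 170.0, 146 and 135 FPKM with DOPAC, against 170.0, 141 and 153 FPKM in the controls. The replicate 1 libraries of both groups had the same level and were the highest. The log2 fold change was -0.044 (95% interval -0.38 to 0.29, adjusted p = 0.930).

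The ratio of Cd8b1 to Cd8a within a library, which does not depend on how that library was scaled, was 0.903, 0.758 and 0.759 with DOPAC, against 1.11, 0.715 and 0.754 in the controls. Control replicate 1 was the only library with more Cd8b1 than Cd8a. Among the other 5 libraries the ratio was highest in DOPAC replicate 1. Cd8b1 has 1483 bp of exon and Cd8a 3637 bp, so a trend with exon length, described below for control replicate 1, does not cancel in this ratio. The log2 ratio differed by -0.068 between the group means, DOPAC minus control. With the length trend removed the difference was 0.050, and without control replicate 1 it was 0.13. The part of length in this ratio was not tested.

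Lck was the steadiest of the 9 transcripts. It encodes the Src-family kinase that starts the cascade (chromosome 4, 129548344 to 129573641). Lck measured 141, 151 and 147 FPKM with DOPAC, against 132, 143 and 145 FPKM in the controls. The lowest library was control replicate 1 and the highest DOPAC replicate 2. Between the groups the log2 fold change was 0.066 (95% interval -0.19 to 0.33, adjusted p = 0.863), and 0.026 without control replicate 1. The SD within groups was 0.061 on the log2 scale, against a median of 0.18 over the 9 genes and 0.23 over all genes tested. Genes behind these medians were not matched to Lck by level.

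Zap70 had the smallest p of the 9 and did not pass. ZAP70 is the kinase that docks on phosphorylated ITAMs (chromosome 1, 36761798 to 36782818). DOPAC libraries had 49.98, 40.8 and 42.0 FPKM, and controls 54.1, 50.04 and 45.8 FPKM. DOPAC replicates 2 and 3 lay below all controls, while DOPAC replicate 1 lay among them. For Zap70 the log2 fold change was -0.17, with an interval from -0.50 to 0.15 (limma adjusted p = 0.801). Leaving out single libraries gave values between -0.26, without DOPAC replicate 1, and -0.12, without control replicate 1, and none passed.

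The ratio of Zap70 to Lck was 0.354, 0.270 and 0.285 with DOPAC, against 0.409, 0.351 and 0.316 in the controls. The groups overlapped through DOPAC replicate 1. The log2 ratio differed by -0.24 between the group means, DOPAC minus control, with SDs of 0.20 in the DOPAC group and 0.18 in the control group. That difference was -0.36 without DOPAC replicate 1 and -0.14 without control replicate 1.

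Lat, the scaffold that ZAP70 phosphorylates (chromosome 7, 126363824 to 126369570), measured 79.4, 59.5 and 63.2 FPKM with DOPAC and 78.9, 64.7 and 67.0 FPKM in the controls. Replicate 1 was again the highest in each group. Its log2 fold change was -0.064 (95% interval -0.44 to 0.31, adjusted p = 0.911), -0.19 without DOPAC replicate 1 and 0.022 without control replicate 1.

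Several of these transcripts had replicate 1 in the same place in both groups. Cd3g, Cd247, Cd8b1, Zap70 and Lat, 5 of the 9, were highest in replicate 1 of both groups. The order of replicates 2 and 3 was reversed between the groups for Cd3g, Cd247, Cd8b1 and Zap70. Over all genes tested 1878 of 10887 (17.2%) had this pattern. It was noticed after the values were seen. Cd3e had replicate 1 lowest in both groups. The median of the 9 genes, each centred on its own mean, was 0.090, -0.061 and -0.13 in DOPAC replicates 1, 2 and 3, against 0.16, -0.079 and -0.011 in the controls on the log2 scale. By this median the replicate 1 library was the highest of its group in both groups. With the replicate number as a block 0 of the 9 genes passed (0% of all genes called), and 0 had an unadjusted p under 0.05, against 4.46% of all genes.

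**Figure D3:**
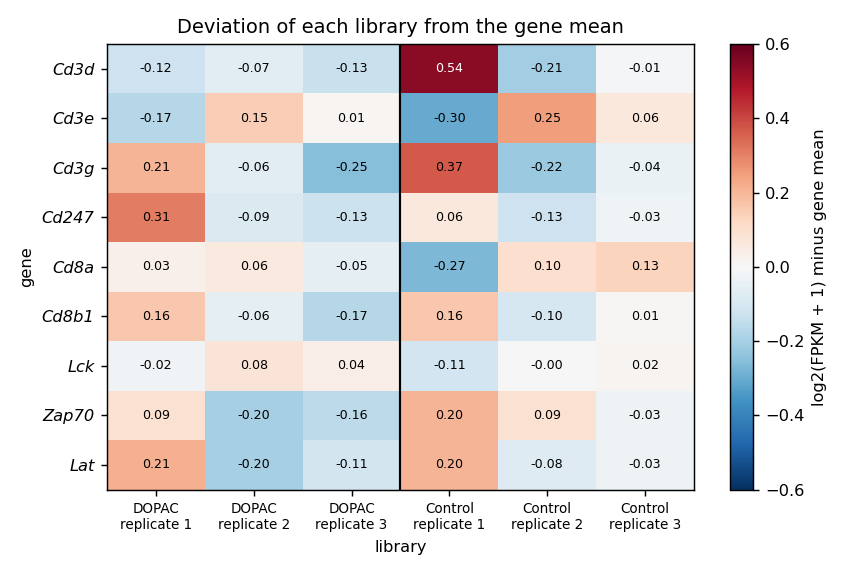
Log2(FPKM + 1) of each of the 9 genes in each library minus the mean of that gene over the 6 libraries, DOPAC on the left and control on the right of the line. Red marks higher and blue lower values, and the strongest are Cd3d at 0.54 and Cd3g at 0.37 in control replicate 1, Cd247 at 0.31 in DOPAC replicate 1 and Cd3e at -0.30 in control replicate 1.

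Control replicate 1 stood apart over the whole transcriptome, and several of the values above rest on it. Its correlation with the other libraries across genes was 0.899 to 0.917, where the other 5 gave 0.974 to 0.992 among themselves, genes not being independent replicates. FPKM summed to between 283818 and 316035 per library, and the sequencing depth behind them is unknown. In control replicate 1 genes with short exons were high and genes with long exons low. The median gene there deviated from the other 5 libraries by 0.61 for lengths over 500 and up to 1000 bp, and by -0.67 above 8000 bp.

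Some of the 9 genes lay near that trend and others did not. Cd3e (4080 bp, deviation -0.37), Cd8a (3637 bp, -0.33) and Lck (2929 bp, -0.13) were low in control replicate 1, where the medians of genes over 4000 and up to 6000 bp, over 3000 and up to 4000 bp and over 2000 and up to 3000 bp were -0.37, -0.21 and -0.023. Cd3d (1815 bp) deviated by 0.67, against a median of 0.20 for its length range. Cd3g (3269 bp) deviated by 0.43, against a median of -0.21. Cd247 deviated by 0.15, against a median of -0.37. Zap70 (2992 bp) and Lat (2767 bp) deviated by 0.23 and 0.28, against a median of -0.023. Cd8b1 (1483 bp) deviated by 0.22, against a median of 0.39. The part of transcript length in these differences was not tested. With the length trend removed 0 of the 9 passed.

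**Figure D4:**
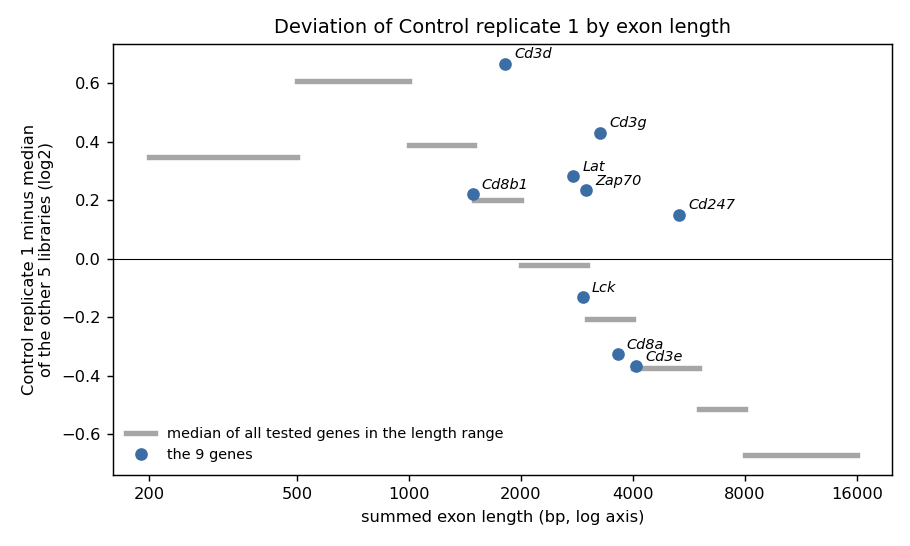
Deviation of control replicate 1 from the median of the other 5 libraries on the log2 scale, against summed exon length on a log axis, for the 9 genes (points) and as medians of all tested genes by length range (bars, the first for lengths up to 500 bp and the last for lengths above 8000 bp). The medians run from 0.61 to -0.67, and Cd3d at 0.67 and Cd3g at 0.43 lie above the bars of their lengths.

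The constant genes of the antigen-binding chains were among the highest transcripts of the pathway and did not pass either. Trac, the constant gene of the alpha chain, measured 287, 298 and 268 FPKM with DOPAC and 304, 303 and 298 FPKM in the controls. Its log2 fold change was -0.085 (95% interval -0.34 to 0.17), and the groups overlapped narrowly. Trbc1 had -0.039 and Trbc2 -0.12, or -0.081 and -0.026 without control replicate 1, and as near-identical copies their reads are uncertain. None of the 3 passed (lowest limma adjusted p = 0.814).

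Set against the label of CD8+ T cells, Cd8a and Cd8b1 were at 134.9 FPKM or more in all 6 libraries. The CD4 T cell list (Cd4, Zbtb7b, Foxp3) and the NK cell list (Ncr1, Klrb1c, Tyrobp, Fcer1g) have no gene among the 11175 listed. The gene filter behind that listing is not named, so the levels of these genes are unknown. Of the B cell list 1 of 4 genes was measured, Cd79b, at 1.47 to 2.61 FPKM with DOPAC and 1.54 to 2.49 FPKM in the controls. Of the macrophage and dendritic cell list 2 of 4 were, Lyz2 and Cd68, with sums of 4.45 to 12.4 FPKM with DOPAC and 14.2 to 33.8 FPKM in the controls. Both red cell genes summed to 0.280 to 3.02 FPKM with DOPAC and 2.72 to 10.4 FPKM in the controls. The 1 measured gamma-delta gene of 3, Trdc, was at 0.931 to 1.17 FPKM with DOPAC and 1.05 to 1.93 FPKM in the controls. None of the markers measured was at 0 in any library. For Lyz2, Cd68 and Hbb-bs the groups did not overlap and DOPAC was lower, as in 4.8% of all genes. None of them passed (limma adjusted p = 0.801 for each). The groups overlapped for Hba-a1, Cd79b and Trdc. The part of these markers in the values of the 9 genes was not tested.

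Beyond the 9 genes, the wider pathway gave no call either. Of 51 listed genes 50 were measured and tested, and 0 passed over all genes (0% of all genes called). At an unadjusted p under 0.05 there was 1 of 50, against 4.19% of all genes. Positive log2 fold changes were found for 26 and negative for 24, with a median of 0.020. The groups did not overlap in 8, of which 6 were higher with DOPAC (12.4% of all genes were) and 2 lower (4.8% of all genes were).

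Themis, an adaptor of the T lineage that binds GRB2, had the smallest p on that list. It measured 24.4, 19.4 and 22.1 FPKM with DOPAC, against 6.77, 15.1 and 13.3 FPKM in the controls. All DOPAC libraries lay above all controls, and control replicate 1 was far below the rest. DOPAC minus control on the log2 scale was 0.91 (95% interval 0.24 to 1.59, limma adjusted p = 0.801). Without control replicate 1 it was 0.59 (95% interval 0.31 to 0.87, limma adjusted p = 0.295). Themis has 11682 bp of exon and deviated by -1.39 in control replicate 1, where the median of genes above 8000 bp was -0.67.

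By p, the next among genes with positive values were Sla, the Src-like adaptor that limits receptor levels, and Malt1, the protease of the NF-kappaB branch. For Sla the log2 fold change was 0.34 (95% interval -0.026 to 0.71). For Malt1 it was 0.56 (95% interval -0.055 to 1.18). Without control replicate 1 these were 0.22 (95% interval -0.0085 to 0.45) and 0.26 (95% interval 0.070 to 0.45). Neither passed with all libraries (limma adjusted p = 0.801 for both) or without control replicate 1 (limma adjusted p = 0.354 for Sla and 0.295 for Malt1).

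Among genes with negative values the smallest p-values were those of Dok2, Dok1 and Csk. Dok2 and Dok1, adaptors that recruit inhibitors of Ras, had log2 fold changes of -0.30 (95% interval -0.66 to 0.066) and -0.33 (95% interval -0.74 to 0.078). Without control replicate 1 they were -0.21 (95% interval -0.48 to 0.066) and -0.17 (95% interval -0.38 to 0.036). Csk, the kinase that keeps LCK in its inactive form, measured 64.3, 76.3 and 67.6 FPKM with DOPAC, against 71.7, 86.5 and 82.2 FPKM in the controls. The groups overlapped, and its log2 fold change was -0.20 (95% interval -0.52 to 0.11). Without control replicate 1 it was -0.28 (95% interval -0.51 to -0.057, limma adjusted p = 0.305). None of these 3 passed (limma adjusted p = 0.801 for each with all libraries).

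By role, the medians of the wider list with all libraries were 0.085 for 11 kinases and kinase regulators and -0.027 for 15 adaptors. They were 0.012 for 12 genes of the second messenger branches, 0.35 for 5 ubiquitin ligases and negative regulators, and -0.023 for 4 surface modulators. Without control replicate 1 every one of these 5 medians was negative, between -0.15 and -0.045. In that fit 14 of the 50 genes were positive and 36 negative, with a median of -0.11 against -0.011 for all genes. At an unadjusted p under 0.05 there were then 17 of 50 (34.0%), against 14.5% of all genes. Of these 15 were lower, against 8.89% of all genes. In this fit 0 of the 50 passed after adjustment (lowest limma adjusted p = 0.295), where 2 of all genes did (0.0184% called). Adding the replicate block left 0 of all genes past the threshold (lowest limma adjusted p = 0.132). The 9 genes themselves had 6 positive and 3 negative values in that fit, a median of 0.022, and 0 at an unadjusted p under 0.05. With the block added they had 2 positive and 7 negative values, a median of -0.067, and 1 at an unadjusted p under 0.05 (15.5% of all genes), Zap70, which did not pass (limma adjusted p = 0.319). The wider list then had 15 positive and 35 negative values.

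**Figure D5:**
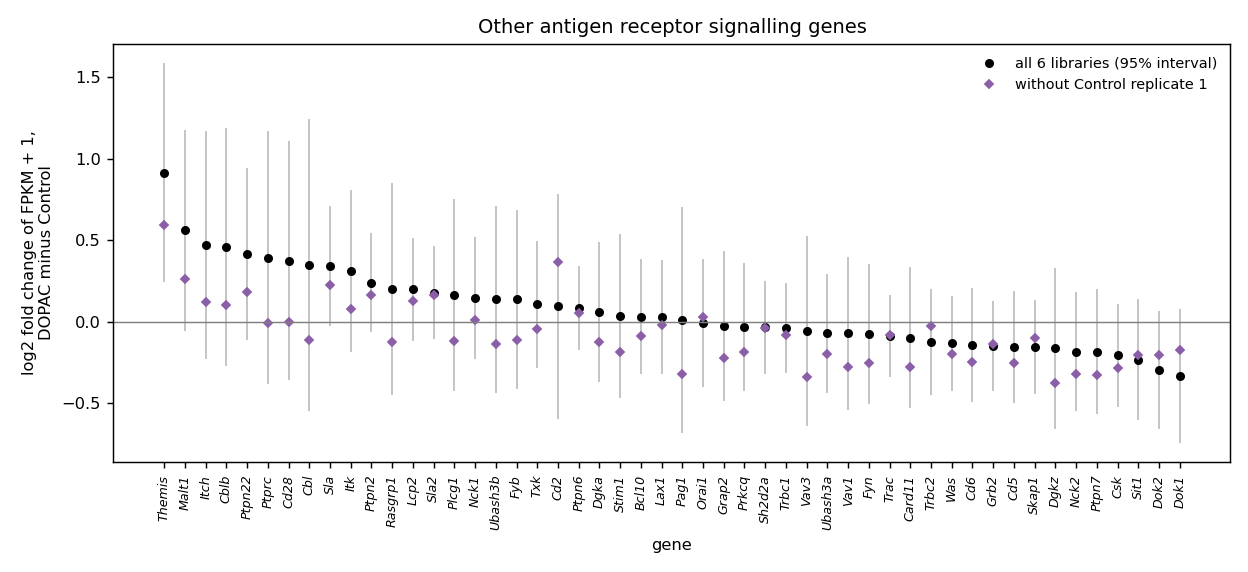
Log2 fold change of FPKM + 1, DOPAC minus control, for 50 other antigen receptor signalling genes in order of size, from all 6 libraries with 95% intervals (black and grey) and without control replicate 1 (purple). Themis at 0.91 is the highest black point, and 36 of the 50 purple points lie below 0.

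The mean profile of the 9 genes over the 6 libraries ran from -0.11 in DOPAC replicate 3 to 0.096 in control replicate 1 on the log2 scale. It was highest in replicate 1 of both groups. Single genes moved in opposite directions in control replicate 1, such as Cd3d at 0.54 and Cd3e at -0.30. The genes closest to the mean profile therefore resemble the average and not any 1 of the 9 in particular. Likeness was the largest absolute difference between the centred log2 values in any of the 6 libraries. Among 6822 genes with a mean of at least 5 FPKM the closest were Med27 (0.053), Snrnp40 (0.055), Ddx41 (0.058), Cdk4 (0.059) and Abt1 (0.060). Cdk4, the cyclin-dependent kinase of early cell cycle, measured 108, 102 and 99.8 FPKM with DOPAC, against 108, 96.8 and 105 FPKM in the controls.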

How the data were processed

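The submitters' processing notes name cutadapt 1.9, HISAT2 2.2.1 and the build mm10. Per the labels' protocols, full-length cDNA was made with SMART-Seq HT and libraries with Nextera XT, which do not mark strand. Values are FPKM as the authors deposited them, 1 column per library; the labels and headers do not name the estimator, annotation or gene filter. The authors deposited a log2 fold change, equal to the difference of mean log2(FPKM + 1) in all 11175 rows within 1e-06, and p-values, raw and adjusted, from a test the headers do not name. FPKM give no counts, so no counting interval is given.

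Genes with a mean under 1 FPKM were left out (288, none of them among the 9). R 4.3.3 with limma 3.58.1 fitted log2(FPKM + 1), with a mean-variance trend and Benjamini-Hochberg adjustment over 10887 genes at 0.05; fold changes are on that scale, which understates those of low genes. The fit was tested on simulated data. Exon lengths and positions came from GENCODE M21, which held 11067 of the listed genes. Replicate numbers came from the library names. Deviations from group means correlated at 0.34, 0.16 and 0.28 between same-numbered libraries, each above 0.1, so by a fixed rule the numbers count as pairing the libraries. The data do not establish it: DOPAC replicate 2 correlated more with control replicate 3 (0.19) and control replicate 2 more with DOPAC replicate 3 (0.24) than with their own numbers. Deviations from a group mean cancel within the group, so these correlations are not separate checks of pairing. Intervals and p-values are from the fit without the block unless it is named; no label says what same-numbered libraries share. Alternatives were the replicate number as a block, other pseudocounts, filters, scalings, variance models, removal of the length trend and leaving out each library. The 9 genes and the lists were chosen with earlier results of these data known. All 9 are named. From the wider list the 3 genes with the smallest p in each direction are, with the receptor constant genes and the 5 genes closest in profile. Figures were drawn with matplotlib 3.10.9.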

Additional observations from a re-analysis of the deposited data

How the results depend on the processing

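Over 18 alternatives the 9 genes gave 162 log2 fold changes, of which 0 passed; 136 kept their sign and 26 changed it. Lck stayed positive, down to 0.0078 with equal medians, and Zap70 negative in all 18. Sign changes were: with equal medians, Cd8a at -0.035; with the length trend removed, with or without the replicate block, Cd247 at -0.051, Cd8a at -0.042 and Cd8b1 at 0.0079; with library weights, Cd3d at 0.028, Cd3g at 0.038 and Cd8a at -0.080; with the replicate block and control replicate 1 left out, Cd3d at 0.010, Cd247 at -0.032 and Cd8a at -0.11. Leaving out each library in turn gave -0.37 to 0.0027 for Cd3d, -0.16 to 0.12 for Cd3e, -0.20 to 0.094 for Cd3g, -0.079 to 0.14 for Cd247, -0.10 to 0.095 for Cd8a, -0.14 to 0.029 for Cd8b1, 0.026 to 0.093 for Lck and -0.19 to 0.022 for Lat. Except where the alternative is itself fewer libraries, the cause was not tested. The count of all genes lower with DOPAC, 0 with all libraries, was 0 to 2 with single libraries left out (2 without control replicate 1) and 2 with library weights; neither fit called a gene of the 9 or of the wider list. The estimate of the library weights stopped before its convergence tolerance. With all 6 libraries the replicate block changed no call: Zap70 had -0.17 (limma adjusted p = 0.698), and 0 genes passed, with 486 at an unadjusted p under 0.05. With control replicate 1 left out it ended both calls. Depth is unknown, so what sampling of reads adds to these intervals cannot be given.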
